A study of Mus musculus with 94 samples.

Results

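L1Md_F and L1Md_F3 are 2 subfamilies of mouse LINE-1 (L1), and their individual genomic copies were followed here in cortex and hippocampus of Ts65Dn mice and their littermates. A copy was taken as a member where its name in the deposited table of L1 counts, read up to its copy number, was exactly L1Md_F or L1Md_F3. This gave 12252 elements of 430083 in the table, namely 2104 L1Md_F and 10148 L1Md_F3 elements. A further 2 elements with these names were set aside.

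L1 is a retrotransposon that copies itself through an RNA intermediate. A full-length copy carries an internal promoter, an RNA-binding protein (ORF1p) and a protein with endonuclease and reverse transcriptase activity (ORF2p). Mouse L1 subfamilies are named after the repeated units, or monomers, of their promoters, and the F type is older than the A, T and Gf types that still hold mobile copies. Most genomic L1 copies are truncated at their 5′ end and can be transcribed as part of another transcript. Lamivudine is a nucleoside analog that blocks reverse transcriptases.

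Total RNA was sequenced from 94 libraries, 48 of cortex and 46 of hippocampus, taken from 48 male mice, of which 46 gave both tissues. Their age is given as 3 to 4 months. Tissue was taken after the 4 months of treatment, so this cannot be the age at sampling, which is not stated. Trisomic (TS) mice carried an additional copy of the chromosome segments in Ts65Dn and came from B6EiC4Sn.BLiA-Ts(1716)65Dn/DnJ mothers and B6C3F1/OlaHsd fathers, so their background was mixed; wild-type (WT) mice were their littermates. Treated mice (-t) drank lamivudine at 3 mg/kg for 4 months, and non-treated mice (-nt) drank water. Cortex had 9 libraries of WT-nt, 17 of WT-t, 9 of TS-nt and 13 of TS-t, and hippocampus had 8, 17, 8 and 13. The methods state that RNA was pooled in groups of 3 for a quality measurement; whether a library was itself a pool is not stated. The L1 counts alone were used, so the tissue labels were not checked against marker genes.

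A library held between 186545 and 1165192 L1 counts in cortex and between 178454 and 403378 in hippocampus. In cortex, 8 libraries stood apart along the first principal component of all L1 elements; none did in hippocampus. The animal labels begin with 18, 19 or 20: all non-treated mice had 20, against 3 of 17 WT-t and 8 of 13 TS-t mice. What the prefix stands for is not stated. Treatment and prefix therefore cannot be told apart except among mice with labels beginning with 20.

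Both subfamilies were a small part of the L1 signal and were spread over many copies with few counts each. Together they held a median of 1.38% of L1 counts in cortex (0.926% to 2.17%) and 1.35% in hippocampus (1.20% to 1.49%). In cortex, 1353 L1Md_F elements (64.3%) and 6273 L1Md_F3 elements (61.8%) had a count in at least 1 library. In hippocampus these were 998 (47.4%) and 4616 (45.5%). No count was seen in any library for 536 L1Md_F and 3011 L1Md_F3 elements; a count of 0 over the 28883227 L1 counts of all libraries allows a level of up to 0.104 counts-per-million (CPM), which covers counting error only. Reads that match several near-identical copies were assigned among them by the authors' counting tool, so the count of a single copy is uncertain, and all intervals and tests cover the spread between libraries only.

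A minority of the copies carried most of the signal. Of the L1Md_F counts, 50% lay in 51 elements in cortex and in 32 in hippocampus. For L1Md_F3 the same share lay in 211 and 98 elements. Only 1 L1Md_F and 7 L1Md_F3 elements had a count in every cortex library, against 6 and 26 in hippocampus. The cortex numbers are limited by the library of WT-t mouse 1, which had a count in only 12 L1Md_F and 69 L1Md_F3 elements. Conversely, 546 L1Md_F and 2470 L1Md_F3 elements were seen in a single cortex library.

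**Figure D1:**
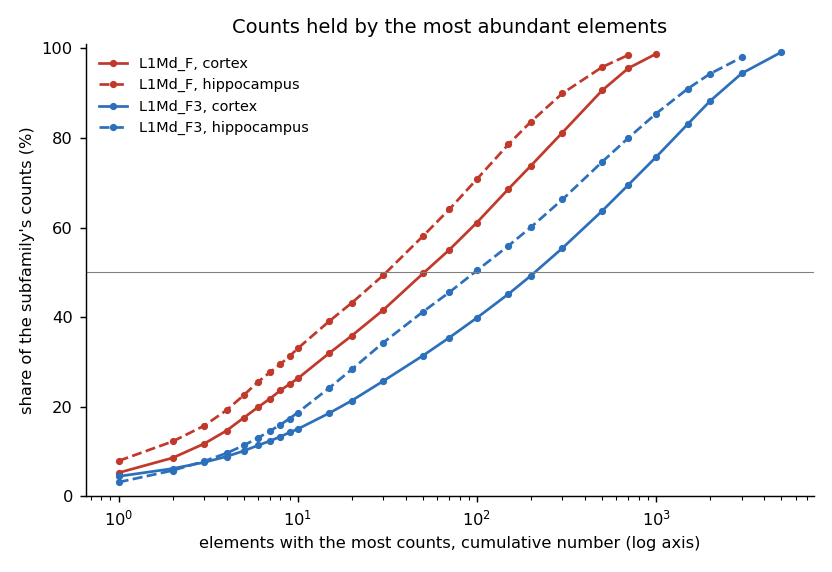
Cumulative share of a subfamily's counts (%, vertical axis) held by its most abundant elements (number, log horizontal axis), for L1Md_F (red) and L1Md_F3 (blue) in cortex (solid) and hippocampus (dashed). The grey line marks 50%, which was reached with fewer elements in hippocampus (32 and 98) than in cortex (51 and 211).

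The most abundant L1Md_F element in both tissues was L1Md_F_dup1709, with 5.22% of the subfamily's counts in cortex and 7.87% in hippocampus. It lies on chr8:99525609-99526446 (mm10, plus strand), and its 838 bases fall in an intron of the long non-coding RNA gene A330008L17Rik, which runs in the same direction. The nearest exon of that gene is 100965 bases away, and the last bases of the copy overlap the start of L1Md_F2_dup29898 (chr8:99526444-99526923). The most abundant L1Md_F3 element was L1Md_F3_dup12987, with 4.42% and 3.11%. A second listed element, L1Md_F3_dup2948, lies on chr3:134060656-134063835 (minus strand, 3180 bases), in an intron of the antisense gene Gm26691 on the same strand. L1Md_F_dup1709 and L1Md_F3_dup2948 are the members for which the study's supplementary list of elements gives a position. Positions of the other elements were not used here.

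Levels of single elements are given as CPM of the L1 counts of the elements tested in that tissue, after TMM scaling, and are not corrected for length. In cortex (n = 48), L1Md_F3_dup12987 had a median of 869 CPM (278 to 6254). In hippocampus (n = 46) its median was 579 CPM (227 to 1578). L1Md_F_dup1709 followed in its own subfamily with medians of 248 CPM (84.3 to 1375) and 298 CPM (113 to 957). The ranges of both elements were wide within each tissue. The next L1Md_F elements, L1Md_F_dup3119, L1Md_F_dup3731, L1Md_F_dup1718 and L1Md_F_dup3530, had cortex means of 175 ± 78.4, 172 ± 84.3, 161 ± 72.4 and 159 ± 74.5 CPM (SD, n = 48), and differed by less than their spread.

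The first question of the design was whether trisomy or lamivudine changed these subfamilies. Of the comparisons, 3 set TS-nt or TS-t against WT-nt, and TS-t against WT-t; 2 set each treated group against the non-treated group of its genotype; and the interaction asked whether treatment acted differently in the genotypes. The summed counts of each subfamily did not change past the threshold in any of the 6 comparisons of a tissue by edgeR's quasi-likelihood test with Benjamini-Hochberg adjustment over 133 subfamilies and a threshold of 0.1. Among all subfamilies the share called against WT-nt in cortex was 0.752% for TS-nt and 0.752% for TS-t. In hippocampus it was 1.5% for TS-nt and 0.752% for TS-t. It was 0% in the other 8 comparisons.

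As a share of L1 counts, L1Md_F in cortex averaged 0.269% ± 0.068 for WT-nt (mean ± SD, n = 9), 0.240% ± 0.045 for WT-t (n = 17), 0.265% ± 0.019 in TS-nt (n = 9) and 0.274% ± 0.053 in TS-t (n = 13). The groups overlapped, and the extremes of 0.0857% in WT-t and 0.438% in WT-nt both came from libraries that stood apart, as did the highest TS-t value of 0.434%, without which the TS-t mean was 0.261%. In hippocampus the share was 0.227% ± 0.022 (n = 8), 0.228% ± 0.025 (n = 17), 0.241% ± 0.032 (n = 8) and 0.251% ± 0.025 (n = 13) in the same order. In hippocampus, TS-t exceeded WT-t by 0.0233 percentage points (permutation test, p = 0.017) and WT-nt by 0.0239 (exact permutation test, p = 0.0391). Neither passed after adjustment over the 20 differences in share (adjusted p = 0.243 for both).

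L1Md_F3 held a larger share with the same absence of calls. In cortex it was 1.22% ± 0.197 in WT-nt, 1.12% ± 0.086 in WT-t, 1.11% ± 0.042 in TS-nt and 1.17% ± 0.118 in TS-t. In hippocampus it was 1.10% ± 0.058, 1.09% ± 0.054, 1.12% ± 0.054 and 1.13% ± 0.059. The WT-nt cortex mean was raised by 1 library with 1.73%, while the other 8 lay between 1.10% and 1.26%. TS-nt minus WT-nt was −0.109 percentage points in cortex (exact permutation test, p = 0.0356, adjusted p = 0.243), and the difference was −0.056 without the libraries that stood apart (n = 8 against 8, exact p = 0.0186, adjusted p = 0.186).

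**Figure D2:**
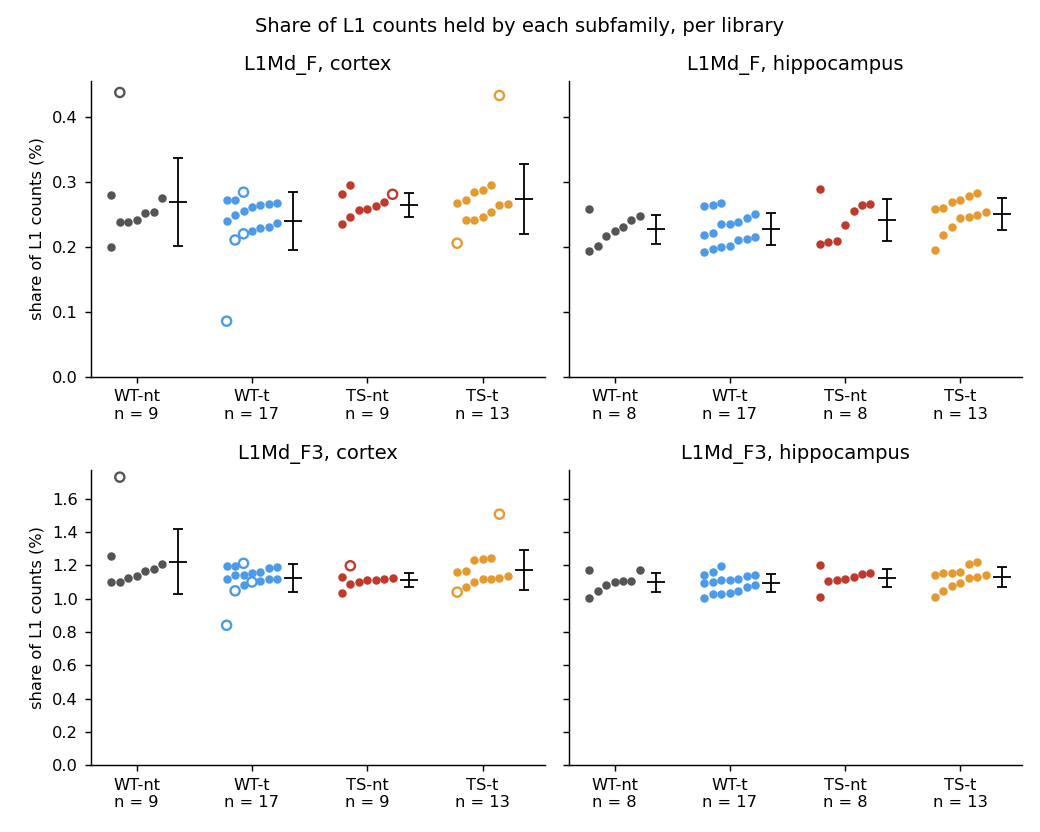
Share of L1 counts (%, vertical axis) held by L1Md_F (top) and L1Md_F3 (bottom) in each library of cortex (left) and hippocampus (right), by group. Bars give mean ± SD and open circles mark the 8 cortex libraries that stood apart; the groups overlap in all 4 panels.

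On the log2 scale of the fit, the lowest p-values for the sums in cortex were those of L1Md_F3, with −0.25 (SE 0.11, adjusted p = 0.173) for TS-nt vs WT-nt and 0.32 (SE 0.14, adjusted p = 0.176) for the interaction. The L1Md_F interaction in cortex was 0.38 (SE 0.19, adjusted p = 0.218). The L1Md_F difference between TS-nt and WT-nt was −0.16 (SE 0.15, adjusted p = 0.565). All 4 rested on WT-nt mouse 24: without it the L1Md_F3 values were −0.053 (adjusted p = 0.892) and 0.092 (adjusted p = 0.684), the L1Md_F interaction was 0.093 (adjusted p = 0.776), and the L1Md_F difference turned to 0.10 (adjusted p = 0.892). In hippocampus, L1Md_F in TS-t vs WT-t gave 0.14 (SE 0.06, edgeR adjusted p = 0.412), the fourth lowest p of 133 subfamilies. The lowest p there was that of L1Md_F2 (0.05, SE 0.02, edgeR adjusted p = 0.412). L1Md_Gf gave 0.15 (SE 0.08, edgeR adjusted p = 0.429), and L1Md_A and L1Md_T 0.06 each. L1Md_F3 gave 0.04 (SE 0.03, adjusted p = 0.535) in the same comparison.

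The L1Md_F3 to L1Md_F count ratio was used to ask whether the subfamilies moved apart from each other. Its mean ranged from 4.22 ± 0.302 in TS-nt to 4.91 ± 1.31 in WT-t in cortex, and from 4.54 ± 0.534 in TS-t to 4.86 ± 0.299 in WT-nt in hippocampus. The WT-t cortex mean was raised by mouse 1, with a ratio of 9.81 (next 5.15). None of the 10 differences passed (lowest adjusted p = 0.293, permutation tests on the log2 ratio; lowest unadjusted p = 0.0562).

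The second question was whether single copies changed between groups. Only copies with enough counts could be tested: 21 L1Md_F and 92 L1Md_F3 elements in cortex, and 16 and 72 in hippocampus. These held 36.5% and 38.6% of their subfamily's counts in cortex and 39.9% and 45.8% in hippocampus. By edgeR's quasi-likelihood test, adjusted over all 5416 elements tested in cortex or 4238 in hippocampus, 0 members were called in any of the 12 comparisons. The share called among all elements in hippocampus was 0.0708% for TS-nt vs WT-nt and 0.0472% for TS-t vs WT-nt. The other 10 comparisons had 0%. DESeq2's Wald test called 2 members in hippocampus and 0 in cortex, where it called 0 of all elements too. It called 0.425% of all elements for TS-t over WT-nt in hippocampus and 0.283% for TS-t over WT-t.

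Members with an unadjusted p below 0.05 were few in each comparison. In cortex, with 113 members tested, they numbered 2 for TS-nt vs WT-nt (1.51% of all elements), and 2 when TS-t replaced TS-nt there (1.75%). There were 3 for the effect of treatment in TS (0.905%), 0 for treatment in WT (1.59%), 2 for TS-t against WT-t (1.96%) and 1 for the interaction (1.11%). All of these were higher in the first group or, for the interaction, positive. In hippocampus, with 88 members tested, the counts in the same order were 3 (4.03%), 7 (4.25%), 5 (3.26%), 0 (3.16%), 4 (3.94%) and 2 (3.11%). The L1Md_F members among them, 2 in each of 3 comparisons, were all higher in TS-t, and those of L1Md_F3 lay in both directions. The 2 members with the lowest p in each comparison filled 24 places with 14 different elements, and L1Md_F_dup1709 took 6 of them.

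L1Md_F_dup1709 was higher in TS than in WT libraries on average in both tissues. In cortex its median was 197 CPM in WT-nt (84.3 to 319), 190 in WT-t (115 to 418), 362 in TS-nt (128 to 560) and 339 in TS-t (192 to 1375). In hippocampus the medians were 233 CPM (113 to 351), 258 (133 to 561), 341 (142 to 402) and 503 (127 to 957). Of 13 TS-t libraries, 7 in cortex and 9 in hippocampus were above the highest WT-nt library, and of the TS-nt libraries 7 of 9 and 4 of 8 were. The ranges of TS and WT groups overlapped all the same.

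For TS-t vs WT-nt in hippocampus the log2 fold change of L1Md_F_dup1709 was 1.13 (SE 0.27, p = 8.07e-05, adjusted p = 0.114 by edgeR), just outside the threshold. DESeq2 placed the same difference inside it (1.18, SE 0.29, adjusted p = 0.0432). TS-t vs WT-t in hippocampus gave 0.88 (SE 0.21, edgeR adjusted p = 0.185, DESeq2 adjusted p = 0.0228). In cortex TS-t gave 1.20 over WT-nt (SE 0.34) and 0.94 over WT-t (SE 0.28), and TS-nt gave 0.89 over WT-nt (SE 0.37), each with an edgeR adjusted p of 0.999. The two-sided permutation tests of its mean CPM, adjusted over its own 10 differences, gave an adjusted p of 0.0102 for TS-nt over WT-nt in cortex (exact). TS-t exceeded WT-nt with an adjusted p of 0.0302 in cortex and 0.0102 in hippocampus (both exact), and WT-t with 0.0102 in each tissue (permutation tests). For treatment within TS in hippocampus, TS-t over TS-nt gave 0.71 (SE 0.27, edgeR adjusted p = 1.00) and 195 CPM (exact permutation test, adjusted p = 0.0533), and within prefix 20 the difference was 101.4 CPM (exact, adjusted p = 0.286). The element is on the study's own list, which was made from these samples, so these tests are not independent evidence for it.

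The level of L1Md_F_dup1709 also differed among animal label prefixes, in an order that was not the same in each tissue and genotype. Among cortex TS-t mice it averaged 772 CPM in the 4 with prefix 19 and 294 CPM in the 8 with prefix 20, and the 1 with prefix 18 had 253 CPM. In hippocampus these values were 639, 406 and 690 CPM. Among WT-t mice in cortex it averaged 319 CPM with prefix 18 (n = 6), 172 with prefix 19 (n = 8) and 188 with prefix 20 (n = 3). In hippocampus the WT-t means in the same order were 227, 274 and 346 CPM, so that prefix 18 was the highest in cortex and the lowest in hippocampus. Within prefix 20, TS-t exceeded WT-nt by 104 CPM in cortex (exact permutation test, p = 0.0206, adjusted p = 0.103) and by 179 CPM in hippocampus (exact, p = 0.0314, adjusted p = 0.105). TS-t exceeded WT-t by 106 CPM in cortex (exact, p = 0.133) and by 59.8 CPM in hippocampus (exact, p = 0.624), with 3 WT-t mice. The part of the prefix in the differences was not tested.

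L1Md_F3_dup2700 had its lowest median in TS-t in hippocampus. Its median was 147 CPM in WT-nt (89.2 to 294), 210 in WT-t (110 to 307), 173 in TS-nt (57.3 to 368) and 96.2 in TS-t (6.54 to 214). Of 13 TS-t libraries, 8 lay below the lowest WT-t library and 1 above the WT-t median. TS-t vs WT-t gave −1.01 (SE 0.26, edgeR adjusted p = 0.185), with an adjusted p of 0.0228 by DESeq2 and 0.0996 in an edgeR fit of these 2 groups alone. In this comparison, edgeR called 0 of 72 L1Md_F3 elements with DESeq2 size factors, and 0 of 72 with library sizes from all L1 counts. With treated mice of prefix 20 alone it called 0 of 106, and 0 of all 6535 elements. The part of the prefix in this difference was not tested. TS-t vs TS-nt gave −0.82 (SE 0.31, adjusted p = 1.00). In cortex the group medians lay between 90.0 CPM in TS-t (5.86 to 275) and 119 CPM in TS-nt (47.9 to 197), and the groups overlapped.

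**Figure D3:**
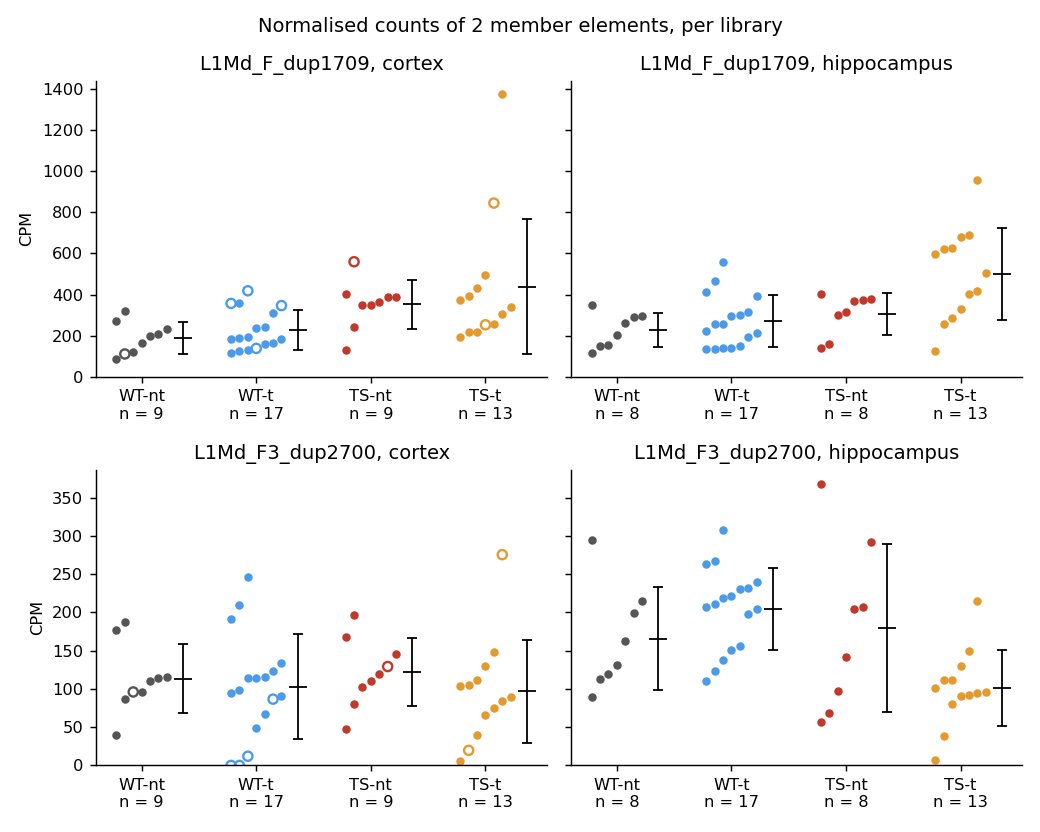
CPM (vertical axis) of L1Md_F_dup1709 (top) and L1Md_F3_dup2700 (bottom) in each library of cortex (left) and hippocampus (right), by group, with mean ± SD; open circles mark the cortex libraries that stood apart. For L1Md_F_dup1709, 9 of 13 hippocampus TS-t libraries lie above all WT-nt libraries, and for L1Md_F3_dup2700, 8 of 13 lie below all WT-t libraries.

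Other members named by their low p-values changed less or rested on fewer counts. L1Md_F_dup3731 in cortex had means of 154 ± 54.6 CPM in WT-nt, 121 ± 91.3 in WT-t, 221 ± 56.7 in TS-nt and 218 ± 68.2 in TS-t. In hippocampus the means in the same order were 131 ± 76.4, 156 ± 65.9, 210 ± 86.2 and 231 ± 102. Both TS means were above both WT means in each tissue, but the difference was not called (TS-t vs WT-nt in hippocampus 0.81, SE 0.32, adjusted p = 0.892). L1Md_F3_dup2624 averaged 125 ± 68.5 CPM in cortex TS-nt against 40.3 ± 25.6 in WT-nt, and 70.5 ± 61.4 against 23.5 ± 27.4 in hippocampus. Its log2 fold changes of 1.61 (SE 0.60) and 1.54 (SE 0.69) had adjusted p-values of 0.999 and 0.998 by edgeR. L1Md_F3_dup12987 was highest in TS-t in both tissues, with 1567 ± 1646 CPM in cortex and 775 ± 353 in hippocampus, and the SD in cortex exceeded the mean.

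L1Md_F3_dup2948 had too few counts for the fit. It had a count in 17 of 48 cortex and 6 of 46 hippocampus libraries, 94 and 19 counts in all. In cortex, WT-nt held 60 of these counts in 4 of 9 libraries, 38 of them in 1 library, while TS-t held 2 counts in 2 of 13 libraries. In hippocampus TS-nt it was at 0 in all 8 libraries, which allows a level of up to 1.41 CPM of all L1 counts over the group. The mean in cortex was 0.761 CPM in TS-t and 29.8 in WT-nt (exact permutation test, p = 0.0172, adjusted p = 0.091 over its 10 differences). Without the libraries that stood apart, the difference was −15.1 CPM (exact p = 0.0578, adjusted p = 0.118). Like L1Md_F_dup1709, it is on the study's list made from these samples.

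Some copies were present or absent by library. L1Md_F3_dup1992 had 0 counts in 30 of 48 cortex libraries and up to 49 in the others, and 0 in 26 of 46 hippocampus libraries and up to 52 in the others. In cortex it had a count in 7 of 9 TS-nt libraries and in 2 of 13 TS-t libraries, while in hippocampus the numbers were 3 of 8 and 7 of 13. Its interaction estimate in cortex, −3.41 (SE 1.70, edgeR adjusted p = 1.00), was not called. Counts in 1 tissue of a mouse often came without counts in the other. Of 46 mice, 7 had a count in both, 15 in neither, 11 in cortex alone and 13 in hippocampus alone.

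The third question was how the subfamilies differ between cortex and hippocampus of the same mouse. Both held a larger share of L1 counts in cortex. L1Md_F was 0.260% ± 0.051 in cortex and 0.237% ± 0.027 in hippocampus (SD, n = 46 mice), higher in cortex in 36 of 46 mice (sign-flip permutation test, p = 0.00237). L1Md_F3 was 1.16% ± 0.123 and 1.11% ± 0.056, higher in cortex in 31 of 46 mice (p = 0.0133). Without L1Md_F3_dup12987 the L1Md_F3 difference in share shrank from 0.0464 to 0.0240 percentage points (p = 0.286), so the call of the share by this test rests on 1 element. The log2 ratio of L1Md_F3 to L1Md_F was 2.18 ± 0.22 in cortex and 2.24 ± 0.16 in hippocampus, higher in cortex in 13 of 46 mice (p = 0.0627). This lay inside the threshold of 0.1. By the same test, p was 0.00748 without the most abundant element of each subfamily and 0.00111 in mice with prefix 20. Without the libraries that stood apart it was 0.0022.

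In the fit with mouse as a block, the sums were higher in cortex by 0.15 on the log2 scale for L1Md_F (SE 0.04, edgeR adjusted p = 0.0027) and by 0.09 for L1Md_F3 (SE 0.03, adjusted p = 0.00799). Such calls were common, since 66.9% of all 133 subfamilies were called between the tissues. L1Md_F2, another F subfamily, gave 0.15, and L1Md_A, L1Md_Gf and L1Md_T gave 0.18, 0.16 and 0.37, all called and higher in cortex. L1Md_F3 thus had the smallest difference of these 6 subfamilies; the differences among them were not tested. Among mice with labels beginning with 20, the L1Md_F3 value was 0.04 (adjusted p = 0.38) and no longer passed. The excess in cortex did not differ between groups past the threshold (lowest adjusted p = 0.206, for the L1Md_F3 share, where the mean excess was 0.140 percentage points in WT-nt and −0.0091 in TS-nt, 8 mice each, exact p = 0.00824). Without WT-nt mouse 24 the WT-nt excess was 0.0618 and the difference −0.0709 (exact permutation test, p = 0.0152, not adjusted).

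More copies were also detected in cortex when all libraries were reduced to the same depth of 178454 L1 counts. The expected number with a count was 135 ± 33.7 in cortex and 111 ± 21.6 in hippocampus for L1Md_F, higher in cortex in 35 of 46 mice (sign-flip permutation test, adjusted p = 5e-05). For L1Md_F3 it was 589 ± 148 and 477 ± 99.6, higher in 36 of 46 mice (same test, adjusted p = 4e-05). Before this reduction, L1Md_F2, L1Md_A, L1Md_T and L1Md_Gf also had more elements with a count in cortex in each group. For L1Md_F2 in TS-nt the means were 3827 and 2719. Cortex libraries were also deeper (median 323416 L1 counts against 259745). Other subfamilies were not compared at the common depth, so wider detection was not shown to be particular to the members. A WT-t cortex library that stood apart had only 9.13 and 58.2 elements, and a single L1 element held 24.2% of its counts. None of the 20 differences between groups passed (lowest adjusted p = 0.776, permutation tests; lowest unadjusted p = 0.0764).

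**Figure D4:**
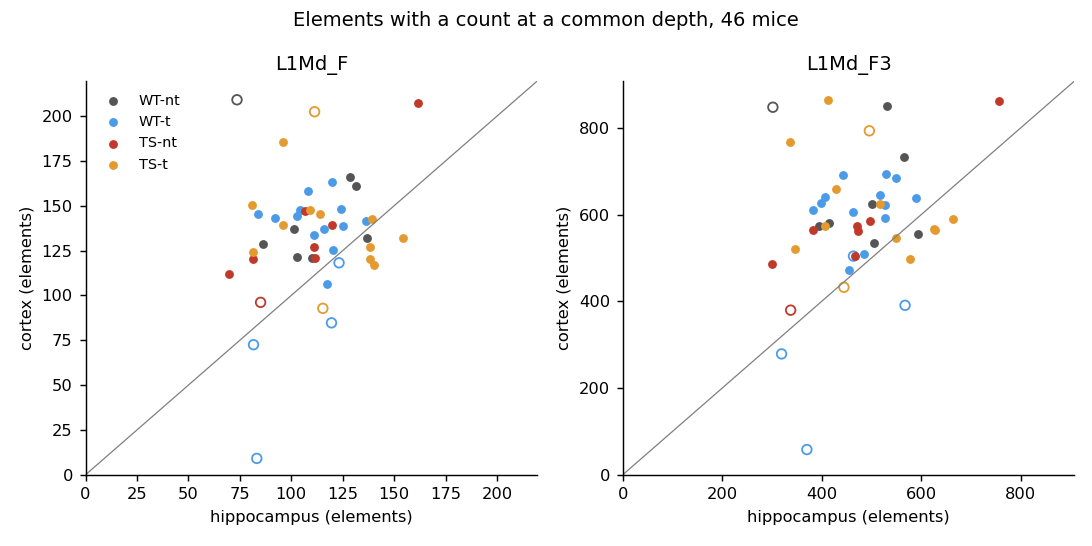
Expected number of L1Md_F (left) and L1Md_F3 (right) elements with a count after reduction to 178454 L1 counts, in hippocampus (horizontal axis) and cortex (vertical axis) of each of 46 mice, coloured by group; open circles mark mice whose cortex library stood apart and the grey line marks equal numbers. For L1Md_F 35 mice and for L1Md_F3 36 mice lie above the line.

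Single copies differed between the tissues in both directions. Of 2495 elements tested in the paired fit, 43.8% were called, 19% higher in cortex and 24.8% higher in hippocampus. Among the members, 5 of 12 L1Md_F elements (41.7%) and 21 of 42 L1Md_F3 elements (50%) were called, close to that background. L1Md_F had 4 higher in cortex and 1 higher in hippocampus. L1Md_F3 had 6 higher in cortex and 15 higher in hippocampus, with a median log2 difference over its tested elements of −0.25, against −0.05 over all elements and 0.13 for L1Md_F.

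The shares of L1 counts held by tested and by rarer L1Md_F3 copies went different ways, while the sum over the tested copies in a fit scaled to such elements was 0.045 on the log2 scale (edgeR adjusted p = 0.195), the same sign as the whole sum. As a share of L1 counts, the 42 tested L1Md_F3 elements held 0.367% ± 0.076 in cortex and 0.436% ± 0.062 in hippocampus, higher in cortex in 5 of 46 mice. The 10106 elements below the filter held 0.789% ± 0.171 and 0.674% ± 0.078, higher in cortex in 39 mice. All L1 elements split the same way. Those tested held 45.99% ± 8.36 of counts in cortex and 52.3% ± 6.38 in hippocampus, and those below the filter held 54.01% ± 8.36 and 47.7% ± 6.38. The filter was set on these same counts, so the split is not independent of it and is not particular to L1Md_F3. For L1Md_F the 12 tested elements held 0.0824% ± 0.018 and 0.0845% ± 0.014, and the 2092 others 0.177% ± 0.053 and 0.152% ± 0.021.

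CPM values in this comparison of tissues are on the scale of the paired fit. L1Md_F3_dup8203 had the widest difference among the members called. Its median was 21.8 CPM in cortex (0 to 104) and 143 CPM in hippocampus (0 to 265), and it was lower in cortex in 44 of 46 mice and higher in 1. The log2 fold change was −2.74 (SE 0.29, edgeR adjusted p = 2.56e-13). L1Md_F3_dup12511 followed with medians of 30.3 and 85.0 CPM and −1.59 (SE 0.32, edgeR adjusted p = 2.65e-05), lower in cortex in 39 of 46 mice. The filter could be passed through the libraries of 1 tissue. These 2 copies had few counts in cortex (199 and 255 over 48 libraries, against 895 and 564 over 46 in hippocampus). Their large differences are therefore not independent of how copies were selected for testing. L1Md_F3_dup7298 gave −0.92 (SE 0.23), L1Md_F3_dup11109 −0.79 (SE 0.20) and L1Md_F3_dup2221 −0.76 (SE 0.18), each lower in cortex in at least 37 mice. In non-treated mice, L1Md_F3_dup7298 and L1Md_F3_dup11109 were not called (edgeR adjusted p = 0.123 and 0.108).

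In the other direction, L1Md_F3_dup12987 was higher in cortex in 39 of 46 mice, with medians of 998 CPM (370 to 7544) and 624 CPM (238 to 1757). Its log2 fold change was 0.80 (SE 0.10, edgeR adjusted p = 8.67e-11). L1Md_F3_dup15926 gave 1.02 (SE 0.35), L1Md_F3_dup4251 0.95 (SE 0.25), L1Md_F3_dup1223 0.80 (SE 0.24) and L1Md_F3_dup9168 0.41 (SE 0.13), with adjusted p-values from 0.00155 to 0.0158. These copies had medians from 73.1 to 356 CPM in cortex and overlapped between the tissues. L1Md_F3_dup9168 was not called in mice with prefix 20 (0.30, adjusted p = 0.129) or in non-treated mice (0.15, adjusted p = 0.674), and L1Md_F3_dup15926 not with prefix 20 (0.68, adjusted p = 0.232). In non-treated mice, L1Md_F3_dup4251 (0.99, edgeR adjusted p = 0.114) and L1Md_F3_dup1223 (0.80, adjusted p = 0.240) were not called either.

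Among L1Md_F elements, L1Md_F_dup3119 rose in cortex to a median of 182 CPM (0 to 529) from 130 CPM (0 to 297) in hippocampus, with a log2 fold change of 0.64 (SE 0.17, adjusted p = 0.00204), higher in 34 of 46 mice. L1Md_F_dup624 gave 0.77 (SE 0.21, adjusted p = 0.003), L1Md_F_dup3537 0.96 (SE 0.30, adjusted p = 0.0076) and L1Md_F_dup3768 0.62 (SE 0.25, adjusted p = 0.0405). L1Md_F_dup3099 was the member higher in hippocampus, at −0.42 (SE 0.20, adjusted p = 0.0873). With DESeq2 size factors its edgeR adjusted p was 0.141, and it was 0.394 in mice with prefix 20 and 0.584 in non-treated mice. L1Md_F_dup3119 was not called in non-treated mice (0.67, edgeR adjusted p = 0.104). L1Md_F_dup1709 did not differ past the threshold, with −0.08 (SE 0.14, adjusted p = 0.647).

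**Figure D5:**
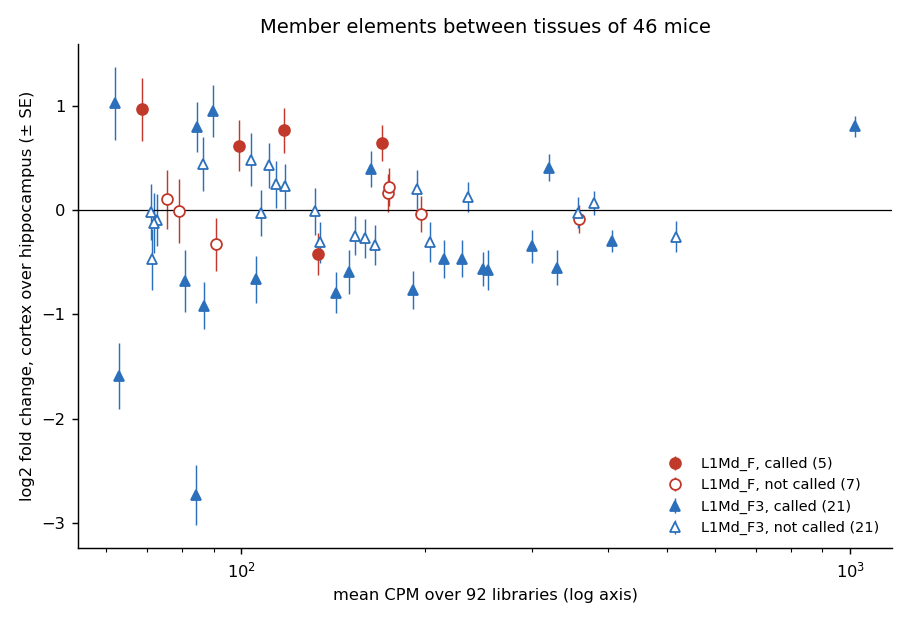
Log2 fold change of cortex over hippocampus (vertical axis, ± SE) against mean CPM over 92 libraries (log horizontal axis) for the 12 L1Md_F (red circles) and 42 L1Md_F3 (blue triangles) elements tested in 46 mice; filled symbols are called. Of the called L1Md_F3 elements 15 lie below 0 and 6 above, and L1Md_F3_dup8203 lies lowest at −2.74.

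The levels of a copy in the 2 tissues of a mouse were compared as a description, over 46 mice that differ in group and label prefix. The median Pearson r of log2 CPM was 0.0812 over 15 L1Md_F and 0.0733 over 65 L1Md_F3 elements tested in both tissues, against 0.108 over all 3722. The highest values were 0.60 for L1Md_F3_dup5699, 0.57 for L1Md_F3_dup12987, 0.44 for L1Md_F_dup3119, 0.41 for L1Md_F_dup3731 and 0.37 for L1Md_F3_dup11730. L1Md_F3_dup5699 had a count in both tissues in 27 mice, in neither in 10, in cortex alone in 5 and in hippocampus alone in 4. The r of L1Md_F_dup1709 was 0.35.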

How the data were processed

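Per the labels and the study's methods, the authors trimmed reads with Trimmomatic 0.38 and used HISAT2 2.1.0 on GRCm38/mm10, keeping up to 5 alignments per read, and counted L1 copies annotated by RepeatMasker with Telescope, which reassigns reads among copies; strand use in counting is not given in the sources used here. The deposited values were raw counts per copy, so edgeR 4.0.16 (R 4.3.3) was used: filterByExpr, TMM scaling, robust quasi-likelihood fits of all 4 groups of a tissue, and Benjamini-Hochberg adjustment over all elements or all 133 subfamilies (threshold 0.1). Tissues were compared with the mouse as a block, since the animal number in the labels ties the 2 libraries of a mouse; groups share no mouse. Shares, ratios and numbers of detected copies were compared by two-sided permutation tests, exact with fewer than 10 values in a group, otherwise 100000 resamples. DESeq2 1.42.0 was an alternative. Scripts were tested on simulated data. P-values measure the spread between libraries, which may be partly technical. Per library, L1 counts were 178454 to 1165192. Elements were named by a fixed rule: those in the study's list with a position, the 5 most abundant per subfamily and tissue, the 2 lowest p-values per comparison, up to 5 called in each direction between tissues, and the 5 highest correlations. The members and lists were chosen with earlier results of these data known. Copies other than L1, and gene counts, were not analysed here. GENCODE M21 gave the gene overlaps; sequences were not used here.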

Additional observations from a re-analysis of the deposited data

Results flagged for a closer look

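In groups of 8 or 9 libraries, 72 sets of values were checked for 1 library far from the rest, and 11 were flagged. A chance rate of about 1 in 20 holds only for independent sets of normally distributed values. The sets here share libraries, and some are of elements with few counts. The number flagged can therefore not be compared with that rate.

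Mouse 24 of the cortex WT-nt group accounted for 5 of the flagged sets. Its L1Md_F share was 0.438% (next 0.281%), its L1Md_F3 share 1.73% (next 1.26%), L1Md_F3_dup12987 was at 1724 CPM (next 947), L1Md_F3_dup2948 at 140 CPM (next 57.0) and L1Md_F3_dup9168 at 118 CPM (next 318). This library had the most L1 counts, 1165192, and is among the 8 that stood apart.

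The others were single elements. L1Md_F3_dup12987 was at 1004 CPM in hippocampus TS-nt mouse 34 (next 598), and L1Md_F3_dup1992 at 163 CPM in cortex WT-nt mouse 45 (next 43.9). L1Md_F3_dup2948 was at 47.6 CPM in cortex TS-nt mouse 26 (next 19.2) and at 20.4 CPM in hippocampus WT-nt mouse 42 (all others 0). L1Md_F3_dup6281 was at 79.5 CPM in cortex TS-nt mouse 32 (next 33.5), and L1Md_F3_dup8624 at 154 CPM in cortex TS-nt mouse 34 (next 95.2).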

How the results depend on the processing

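Members called in any group comparison rose from 0 in cortex to 1803 with a filter of 10 counts in total, 2769 with no filter and 3 at an unadjusted p below 0.05 with an absolute log2 change of at least 1.5; in hippocampus from 0 to 787, 1114 and 3, to 2 with DESeq2 (L1Md_F_dup1709, L1Md_F3_dup2700), 1 with library sizes from all L1 counts (L1Md_F_dup1709) and 1 with only the groups compared (L1Md_F3_dup2700). Of all elements, the filter of 10 counts called 6.86% to 24.97% per cortex comparison (members 6.13% to 34.6%) and 10.6% to 14.5% in hippocampus (6.89% to 14.6%); no filter called 2.98% to 18.4% (1.92% to 21.3%) and 0% to 9.27% (0% to 8.34%). With library sizes from all L1 counts, 0.118% of all elements were called for TS-t vs WT-nt in hippocampus. The fit of only the groups compared called 0.269% for TS-t vs WT-t. DESeq2 called 0.425% and 0.283% in these comparisons. The share of all elements past the unadjusted threshold was not counted. The cause of the differences between settings was not tested.

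For sums in cortex, the L1Md_F log2 change in TS-nt vs WT-nt turned from −0.16 to 0.084 over filtered elements and to 0.072 without the libraries that stood apart, and ranged from −0.22 to 0.10 when each mouse was left out; without WT-nt mouse 24 it was positive. DESeq2 called 2 L1Md_F3 comparisons, TS-nt vs WT-nt (−0.27) and the interaction (0.32). By edgeR without WT-nt mouse 24 these were −0.053 and 0.092 and not called. DESeq2 was not run without that mouse. In hippocampus, L1Md_F in TS-t vs WT-t was called over filtered elements (0.33, 1 comparison), and L1Md_F3 in TS-t vs WT-t went from 0.04 to −0.0028 with treated mice of prefix 20. The share of all subfamilies called by DESeq2 or over filtered elements was not counted. No left-out mouse gave a called sum.

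Between tissues, the L1Md_F sum lost its call over elements below the filter (0.047) and in non-treated mice (0.19), the L1Md_F3 sum over filtered elements (0.045), in mice of prefix 20 (0.043) and in non-treated mice (0.075), and the L1Md_F3 share without its most abundant element (0.0240). Called L1Md_F elements fell from 5 to 3 (prefix 20) and 2 (non-treated), and L1Md_F3 elements from 21 to 5 (non-treated), with fewer mice in each; all elements called fell from 43.8% to 29.8% (prefix 20) and 18.7% (non-treated). Without the replicate block the sums were 0.18 and 0.11, and 5 L1Md_F and 20 L1Md_F3 elements were called (5 and 21 with the block); the calls of the elements named were kept. Of the other values, 153 that answer a comparison and 225 of single elements kept direction and side of the threshold; 21 values of single elements lost and 12 gained a call in the same direction. The filter of 10 counts between tissues was not run. Library sizes from all L1 counts, the fits without libraries that stood apart for shares, ratio, detection and tissue elements, and the split of tissue sums by the filter were chosen after seeing the data. Depth limits tests to copies with about 10 counts in many libraries.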
